A study of Mus musculus with 10 samples.

Results

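The genes described here are 10 listed macrophage markers, *Lyz2*, *Csf1r*, *Cd68*, *Ptprc*, *Tyrobp*, *Fcer1g*, *C1qa*, *C1qb*, *C1qc* and *Cd14*, all of them present among the 18901 genes of the deposited table. They are common macrophage markers, selected on earlier results of these data in which their deposited values were mostly higher in mouse embryonic fibroblasts (MEF) than in the lines derived by reprogramming, so their difference between MEF and the other lines is given as a description and was not tested. The question was whether the MEF libraries hold myeloid RNA that the derived lines lack. The data are 10 libraries of poly(A) RNA from 5 lines, with 2 libraries per line. Oct4/GFP MEF, which carry a green fluorescent protein reporter at *Oct4*, were sampled at passages 2 and 4. The derived lines were pre-iPS cells and 3 iPS lines, named 'control', 'rNetrin-1-derived' clone 1 and 'rNetrin-1-derived' clone 2, and each was sampled at passages 5 and 25. Per the study, both clones were obtained with recombinant Netrin-1 protein (rNetrin-1), and the control line under standard conditions. All 5 lines share the same strain background, a cross of mf1 and 129, and the derived lines came from Oct4/GFP MEF given *Oct4*, *Sox2*, *Klf4* and *c-Myc* by retroviruses. MEF were grown in DMEM with fetal calf serum and iPS cells in KSR medium with LIF. Pre-iPS cells had begun to reprogramme without reaching the iPS state. Each derived line is 1 line or clone, so its passages are repeated samples and not independent derivations. The study's methods describe MEF as derived from mid-gestation embryos, with no sort for fibroblasts stated, and pre-iPS and iPS cells as kept on gelatin or irradiated MEF. Which of these surfaces was used for the sequenced cultures is not given in the sources used here.

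Macrophages are myeloid cells that engulf debris and sense microbes. In the embryo they arise early and settle in most tissues, and they depend on the growth factor CSF1, which fibroblasts and other stromal cells make, through its receptor encoded by *Csf1r*. *Ptprc* encodes CD45, the surface phosphatase of white blood cells. *Tyrobp* (DAP12) and *Fcer1g* (the Fc receptor gamma chain) encode adaptors that carry the signal of many myeloid receptors. *C1qa*, *C1qb* and *C1qc* encode the chains of complement C1q, which macrophages secrete. *Lyz2* encodes the lysozyme of macrophages and granulocytes, *Cd68* a lysosomal membrane glycoprotein, and *Cd14* the co-receptor that hands lipopolysaccharide to TLR4. Several of these genes are also found outside the myeloid lineage, among them *Cd68*, *Cd14* and *Ptprc*.

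The bases just before the start sites are shown for 4 of the genes that were near 0 outside MEF and for *Cd68*, the gene whose MEF and derived values overlapped, because the ETS factor PU.1 is a main regulator of macrophage genes. Each stretch is the 250 bases before the RefSeq start on GRCm38.p6, read along the gene from 5′ to 3′. They lie at chr10:117282273-117282522 for *Lyz2*, chr1:171234350-171234599 for *Fcer1g*, chr4:136886201-136886450 for *C1qb*, chr4:136892915-136893164 for *C1qc* and chr11:69666171-69666420 for *Cd68*, and all 5 genes are on the minus strand. Capitals mark the ETS core AGGAAG on either strand.
Lyz2: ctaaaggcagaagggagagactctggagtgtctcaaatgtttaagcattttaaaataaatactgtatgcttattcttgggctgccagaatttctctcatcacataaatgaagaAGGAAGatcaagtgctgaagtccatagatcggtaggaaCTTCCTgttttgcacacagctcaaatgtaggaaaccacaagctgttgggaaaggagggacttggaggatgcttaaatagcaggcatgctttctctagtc
Fcer1g: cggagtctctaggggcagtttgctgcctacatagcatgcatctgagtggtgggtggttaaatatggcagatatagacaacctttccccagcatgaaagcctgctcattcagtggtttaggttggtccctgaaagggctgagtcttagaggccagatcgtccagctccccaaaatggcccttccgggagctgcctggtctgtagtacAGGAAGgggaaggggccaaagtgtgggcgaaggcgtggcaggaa
C1qb: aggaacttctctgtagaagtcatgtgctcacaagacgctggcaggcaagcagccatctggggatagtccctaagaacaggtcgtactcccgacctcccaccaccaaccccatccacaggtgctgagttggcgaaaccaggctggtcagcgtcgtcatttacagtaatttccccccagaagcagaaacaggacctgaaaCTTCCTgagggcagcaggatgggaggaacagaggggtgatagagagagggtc
C1qc: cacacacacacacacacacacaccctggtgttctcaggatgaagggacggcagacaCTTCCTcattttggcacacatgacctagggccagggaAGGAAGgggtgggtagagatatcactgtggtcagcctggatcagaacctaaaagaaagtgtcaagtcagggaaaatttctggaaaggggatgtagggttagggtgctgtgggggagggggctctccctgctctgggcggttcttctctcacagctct
Cd68: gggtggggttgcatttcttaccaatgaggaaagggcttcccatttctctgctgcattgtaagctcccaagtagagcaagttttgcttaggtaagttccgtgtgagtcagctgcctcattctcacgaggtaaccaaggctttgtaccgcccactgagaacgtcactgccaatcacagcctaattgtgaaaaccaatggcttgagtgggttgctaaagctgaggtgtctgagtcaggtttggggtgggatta
The exact letters AGGAAG were present 2 times in the *Lyz2* and *C1qc* stretches, 1 time in those of *Fcer1g* and *C1qb*, and not in that of *Cd68*. Of 32851 stretches of the same length, 29.5% held them. The longer PU.1 core GAGGAAG, which contains the ETS core, was found in the *C1qc* stretch alone among these 5, and 10.6% of all stretches held it. Only exact matches were counted. The *Cd68* stretch holds GAGGAAA, which differs from this longer core in its last letter, so it is not free of near matches. The *Cd68* stretch held the AP-1 site TGACTCA 2 times, at -149 and -24 from the start, against 4.46% of all stretches with at least 1. The ETS core was added to the motifs searched after the stretches had been seen, and a match is a description of the letters only. *Tyrobp* and *C1qa* have no entry among the RefSeq promoters used here. *Ptprc*, also near 0 outside MEF, has 2 entries, which are not shown, and both held the ETS core.

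The libraries held between 38110410 and 52946856 reads on genes. The deposited values are read counts that edgeR had adjusted to equal library sizes, and the whole reads behind them could be recovered, so both are given. 1 read is worth 0.888 to 1.18 in the deposited unit. Reads scaled to 1000000 reads on genes are given as RPM, and a level compared between genes is given as RPKM, which is RPM per kilobase of annotated exon. Deposited totals were 55886953 and 56073322 in MEF against 39745507 to 41892877 in the derived lines, so a MEF level stands higher beside the derived lines on the deposited scale than in RPM. Intervals on reads cover counting error only and are no test. For MEF over the derived lines, reads were summed over libraries, so the spread between libraries is left out. PCR copies were not separated from independent molecules.

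*Csf1r* (chromosome 18), the receptor that macrophages need for survival, had deposited values of 2297 and 2205 in MEF at passages 2 and 4. At passages 5 and 25 it had 168 and 70.9 in the control iPS line, 138 and 42.1 in clone 1, 106 and 31.4 in clone 2, and 78.6 and 31.7 in pre-iPS cells. The MEF libraries were above all 8 derived libraries, which were themselves not at 0. Summed over libraries there were 4030 reads in MEF and 690 in the derived lines, a ratio of 19.7 in RPM (exact 95% interval 18.2 to 21.4). Its values in the derived lines ranged from 1.39 to 7.48% of the MEF mean. *Csf1r* overlaps *Hmgxb3* on the opposite strand and the library kit did not keep strand, so some of its reads may belong to that gene. *Hmgxb3* had 2641 and 2938 reads in MEF and 3000 to 3694 in the derived lines, and its part in the *Csf1r* reads was not tested.

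*Ptprc* (chromosome 1, 138062861 to 138175708) had values of 245 and 279 in MEF, from 206 and 265 reads. In the derived lines it had 0 to 8 reads per library. The groups did not overlap, and the summed reads of 471 and 27 gave a ratio of 58.8 in RPM (39.9 to 90.2). Its level per exon length was the lowest of the 10 in MEF, at 0.255 RPKM, over 18313 bases of annotated exon.

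Both adaptor genes were close to absent outside MEF. *Tyrobp* (chromosome 7, 30413760 to 30417585) had values of 545 and 525 in MEF, from 461 and 497 reads. It had 1 read in each of 3 derived libraries, clone 1 and clone 2 at passage 5 and the control at passage 25, and 0 in the other 5. Its ratio was 1076 in RPM, with an interval of 367 to 5229 that reflects the 3 derived reads. *Fcer1g* (chromosome 1, 171229572 to 171234365) had values of 505 and 477 in MEF, from 427 and 452 reads, and 3 to 5 reads in every derived library. Its derived values stood at 0.546 to 0.984% of the MEF mean, a narrow range that did not overlap MEF.

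The C1q genes lie side by side on chromosome 4, within 18675 bases from 136880129 to 136898803, all on the minus strand. *C1qa* (136895917 to 136898803) had values of 887 and 882 in MEF and 0 to 2 reads in each derived library. *C1qb* (136880129 to 136886187) had 885 and 873 in MEF, and 1 read each in the control and clone 1 at passage 5 against 0 in the other 6 derived libraries. *C1qc* (136889804 to 136893065) had 738 and 711 in MEF and 3 reads over all 8 derived libraries. For each chain the MEF libraries stood apart from every derived library. The summed MEF reads were 1585 for *C1qa*, 1575 for *C1qb* and 1297 for *C1qc*, against 9, 2 and 3 in the derived lines. A library with 0 reads still allows up to 3, or 0.0647 to 0.0787 RPM at the depth of the derived libraries. Per exon length, *C1qa* and *C1qb* were at 15.2 and 14.4 RPKM in MEF and *C1qc* at 6.70.

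*Lyz2* (chromosome 10, 117277331 to 117282321) had the highest level of the 10 in MEF. Its deposited values were 6824 and 6951 in MEF, from 5762 and 6586 reads. In the derived lines it had 3 to 11 reads per library, the highest in clone 2 at passage 5. MEF and derived libraries did not overlap, and the ratio of summed reads was 925 in RPM (691 to 1269). At 93.5 RPKM, it ranked 398 among the 16910 tested genes with an annotated exon length in MEF. The neighbouring paralog *Lyz1* had 746 and 752 reads in MEF and 0 to 2 in the derived libraries. How reads shared by these near-identical genes were counted is not given, so the *Lyz2* level is uncertain to that extent.

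*Cd14* (chromosome 18), part of the receptor for lipopolysaccharide, had values of 1154 and 1089 in MEF. The derived libraries had 104 to 240, highest in pre-iPS cells at 240 and 215. The control had the lowest line mean, from 104 and 136 at passages 5 and 25, though clone 2 at passage 25 was at 126. MEF stood above all 8 derived libraries by a smaller margin than for the genes above. The ratio of summed reads was 4.97 in RPM (4.63 to 5.33), and the derived values were 9.23 to 21.4% of the MEF mean.

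*Cd68* (chromosome 11, 69664213 to 69666153) did not share this pattern. Its values were 767 and 715 in MEF. They were 846 and 354 in the control, 1124 and 422 in clone 1, 1109 and 671 in clone 2 and 1565 and 853 in pre-iPS cells, at passages 5 and 25. The MEF libraries lay inside the range of the derived ones, which ran from 47.7 to 211% of the MEF mean. In RPM the derived libraries ran from 67.2 to 282% of the MEF mean, and the ratio of summed reads was 0.623 (0.587 to 0.660). That interval covers counting error only and leaves out the spread between libraries. On the deposited scale the mean was 741 ± 36.4 in MEF (SD, n = 2), 868 ± 399 over the derived libraries (n = 8) and 754 ± 331 over the iPS libraries alone (n = 6). The mean of log2 values was 0.11 higher in MEF than in the iPS lines (SE 0.44), a difference smaller than its error. In MEF, *Cd68* was at 10.5 RPKM, close to *Fcer1g* at 10.0 and *Cd14* at 11.6.

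**Figure D1:**
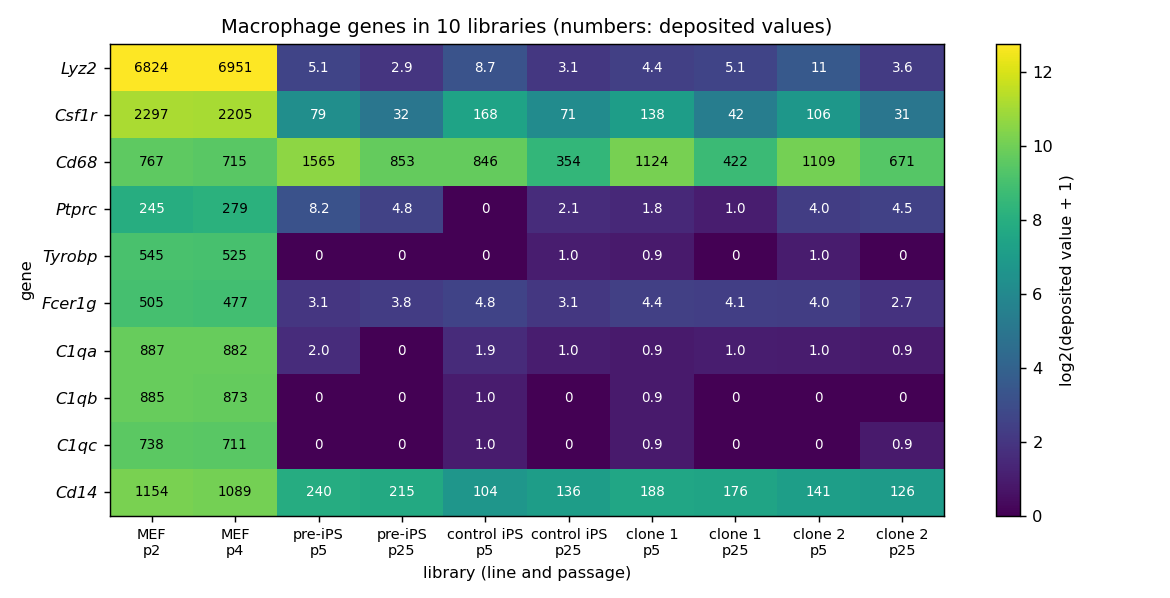
Deposited values of the 10 macrophage genes (rows) in the 10 libraries (columns, line and passage), with colour giving log2(value + 1) and the number in each cell the value. *Lyz2*, *Ptprc*, *Tyrobp*, *Fcer1g* and the C1q genes are at 11 or less in every derived library, *Csf1r* and *Cd14* lie between, and *Cd68* is in the same range in all lines.

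Set in order by their log2 difference between MEF and the iPS lines, *Lyz2* ranked 3 and *C1qb* 7 among 17075 tested genes, followed by *C1qc* at 13, *C1qa* at 17 and *Tyrobp* at 19. *Fcer1g* ranked 87, *Ptprc* 96, *Csf1r* 312, *Cd14* 967 and *Cd68* 7546. These ranks come from the contrast by which the genes were chosen and are no test. A gene was tested where 2 or more libraries had a value of 10 or above, and 7 of the 10 met this only through the MEF libraries, so those 7 had to differ. The exceptions were *Csf1r*, *Cd68* and *Cd14*. Over all 10 genes together, the derived libraries held 10.4 ± 4.0% (mean ± SD, n = 8 libraries) of the MEF RPM. Without *Cd68* the share was 2.56%, and over the 7 genes other than *Cd68*, *Csf1r* and *Cd14* it was 0.186%. These 7 genes had 10 to 21 reads in all in each derived library and 8977 and 10136 in the MEF libraries. For scale, *Gapdh* had values of 32791 ± 757 in MEF (SD, n = 2) and 62560 ± 3669 in the derived lines (n = 8), and *Actb* 90067 ± 2440 and 68610 ± 5996.

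Fibroblast genes were set beside them as the genes typical of the MEF culture. *Col1a1*, the main chain of collagen I, had a median of 0.586% of the MEF mean in the derived libraries, with a range of 0.441 to 0.998%, and *Col1a2* a median of 0.924%. *Fn1* (fibronectin) had a median of 8.14%. Among the macrophage genes, *Csf1r*, *Cd14* and *Cd68* had median shares of 3.32, 14.1 and 115%, *Ptprc* of 1.15% and *Fcer1g* of 0.795%. Those of *Lyz2* and *C1qa* were 0.0692 and 0.114%, and those of *Tyrobp*, *C1qb* and *C1qc* were 0. *Lum* (lumican), at 0.101%, was the fibroblast gene with the lowest share of the 16 in its list. The part of feeder or leftover MEF RNA in the low reads of the derived lines was not tested.

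**Figure D2:**
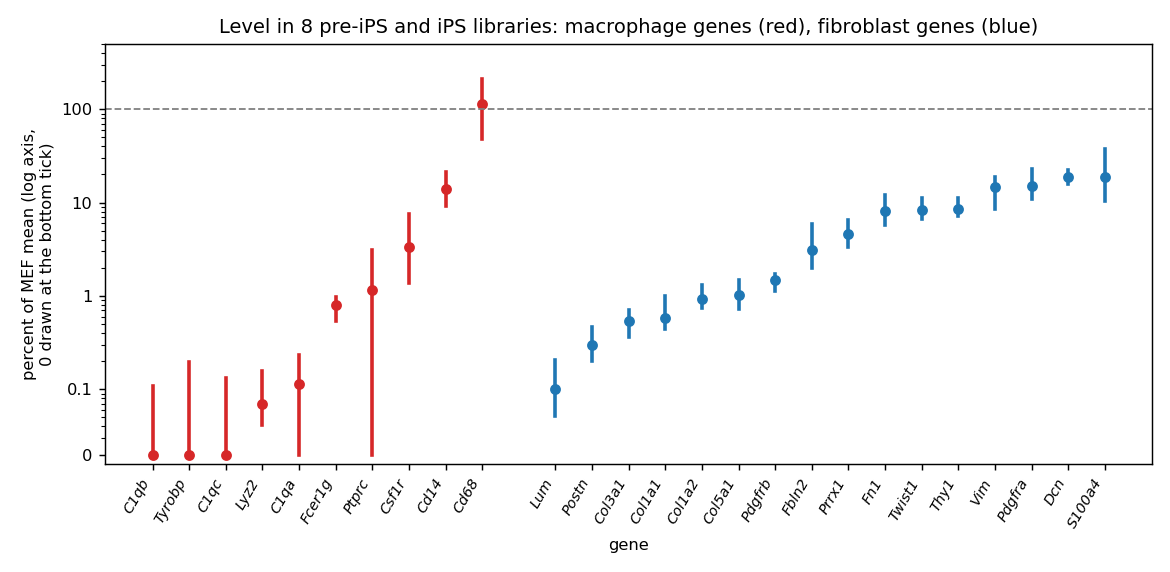
Level in the 8 pre-iPS and iPS libraries as a percent of the MEF mean of the same gene (log axis, with 0 drawn at the bottom tick), for the 10 macrophage genes (red) and 16 fibroblast genes (blue), where points are medians and bars run from the lowest to the highest library. Medians of the macrophage genes run from 0 to 115% and those of the fibroblast genes from 0.101 to 19.0%.

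Between the 2 MEF libraries, the macrophage genes kept a nearly constant level. Their summed reads were 12544 at passage 2 and 13932 at passage 4, a ratio of 0.993 in RPM (exact 95% interval 0.970 to 1.02). For single genes the ratio ran from 0.933 for *Cd68* to 1.15 for *Ptprc*, and all 10 intervals included 1. Over 12767 genes with at least 100 MEF reads the middle 95% of ratios ran from 0.861 to 1.18, with a median of 1.01. With 1 library per passage there is no replicate check of this comparison, and it compares 2 libraries, not passages. The coefficient of variation between these libraries beyond counting error was 1.88%, against 16.1 to 19.6% between the passages of each derived line. The labels do not say whether the MEF passages came from separate cultures.

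**Figure D3:**
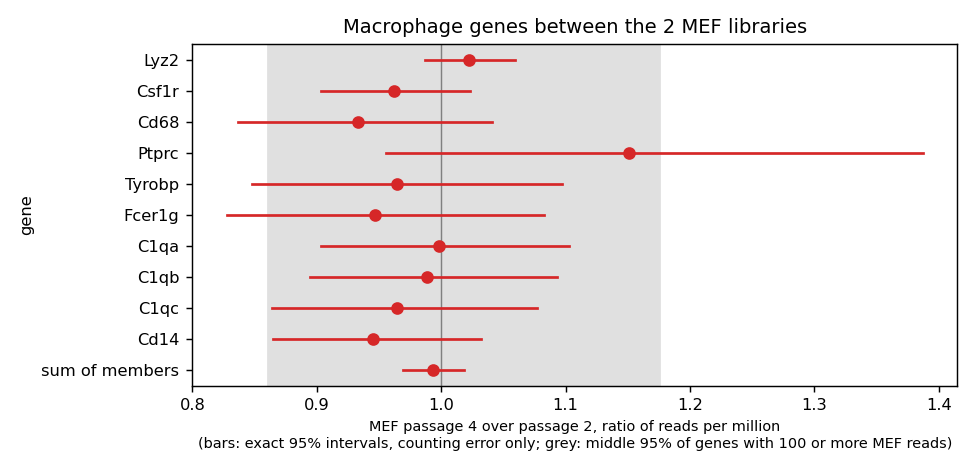
Ratio of RPM in MEF at passage 4 over passage 2 for each macrophage gene and their sum, with exact 95% intervals that cover counting error only, beside the middle 95% of ratios of 12767 genes (grey, 0.861 to 1.18). All 11 intervals include 1.

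Other genes of macrophage biology were counted from 10 lists, which were drawn up with earlier results of these data known. The lists name 172 genes in the table other than the 10 above, of which 165 were tested. A gene was called at an adjusted p under 0.05 (limma, Benjamini-Hochberg) with a log2 difference of at least 1. In MEF against iPS, the contrast by which the 10 genes had been chosen, 112 of the 165 (67.9%) were called higher and 21 (12.7%) lower, beside 21.6% and 26.6% of all 17075 genes. Of the 165, 28 passed the filter only through MEF and had to differ. Among the other 137, 84 (61.3%) were higher, beside 3348 of the 16707 genes that passed without MEF. The median log2 difference over the 165 was 2.00, against -0.09 over all genes.

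Macrophage identity genes were higher for 18 of 25 tested and lower for 1, *Cd74*, the chaperone of MHC class II, at 36.3 ± 0.9 in MEF (SD, n = 2) and 121 to 438 in the derived lines. The largest MEF values were those of *Gpnmb*, a glycoprotein of phagocytes and melanocytes, at 3033 ± 35, *Mpeg1*, which encodes a pore-forming protein of macrophages, at 1767 ± 0.3, and *Msr1*, a scavenger receptor, at 1182 ± 16. *Mpeg1* had 12.2 to 20.3 and *Msr1* 0 to 2.98 in the derived lines, whereas *Gpnmb* had 105 to 3027, up to the MEF level. *Emr1* (*Adgre1*), which encodes the F4/80 antigen of mouse macrophages and was named after its values were seen, had 811 and 787 in MEF and 0 to 4.47 in the derived lines. Among the partners of the ITAM adaptors and the Fc receptors 12 of 15 were higher, with *Sirpa*, the inhibitory receptor for CD47, at 3792 ± 24, and *Trem2*, a lipid receptor that signals through DAP12, at 501 ± 6. *Syk*, the kinase downstream of both adaptors, had 562 ± 37 in MEF and 581 to 1892 in the derived lines and was not called. *Treml2* and *Cd84* were lower, *Treml2* at 2.21 ± 1.3 in MEF and up to 390 in the derived lines.

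Of 16 complement genes 10 were higher, with the largest MEF values for *C1s*, *Serping1* and *C1ra* at 4013 ± 73, 2548 ± 1.6 and 2525 ± 17 in MEF. Those encode the proteases and the inhibitor that act with C1q and are made by fibroblasts as well, and they were at 413 to 1700, 339 to 791 and 478 to 1189 in the derived lines. Of the 16 genes of TLR4 and lipopolysaccharide recognition 9 were higher and 1, the adaptor *Ticam2*, lower. Lysosomal genes, which most cell types express, were higher for 17 of 19, with *Psap*, *Ctsd* and *Ctsb* having the largest MEF values. The lysosomal phosphatase gene *Acp5* was lower, at 165 ± 8.3 in MEF and 583 to 2385 in the derived lines. Of the 11 genes of the CSF1 axis 5 were higher and 3 (*Csf2*, *Flt3* and *Il34*) lower. *Csf1*, the ligand of the receptor encoded by *Csf1r*, had 14100 ± 17 in MEF and 1283 to 2504 in the derived lines, and *Il34*, its other ligand, had 133 ± 0.5 and 333 to 1162.

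Among 21 pan-leukocyte genes 15 were higher and 3 (*Ptprcap*, *Ptpn6* and *Cytip*) lower. *Arhgdib* had 6490 ± 48 in MEF and 1031 to 2466 in the derived lines, *Lcp1*, the actin-bundling L-plastin, 2254 ± 14 and 45.2 to 165, and *Laptm5* 1441 ± 22 and 245 to 4719. Of 17 myeloid transcription factors 11 were higher and 3 (*Batf3*, *Gfi1* and *Klf2*) lower. *Runx1* and *Maf* had 2819 ± 67 and 2245 ± 31 in MEF, and at most 927 and 81.4 in the derived lines. *Spi1* (listed as *Sfpi1*), which encodes PU.1 and was named after its values were seen, had 286 in MEF (mean of 2 libraries) and 0.957 to 21.5 in the derived lines. Genes of tissue-resident macrophages were higher for 9 of 11 (among them *Gas6* and *Tmem119*) and lower for *Sall1*. Activation genes were split, with 7 higher and 6 lower of 15. *Il1rn*, the interleukin-1 receptor antagonist, had 9193 ± 231 in MEF and 47.5 to 140 in the derived lines, and *Arg1* and *Nos2*, the arginine enzymes of activated macrophages, had 10.2 ± 6.8 and 1.15 ± 1.6 in MEF against 326 to 2401 and 61.6 to 828.

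**Figure D4:**
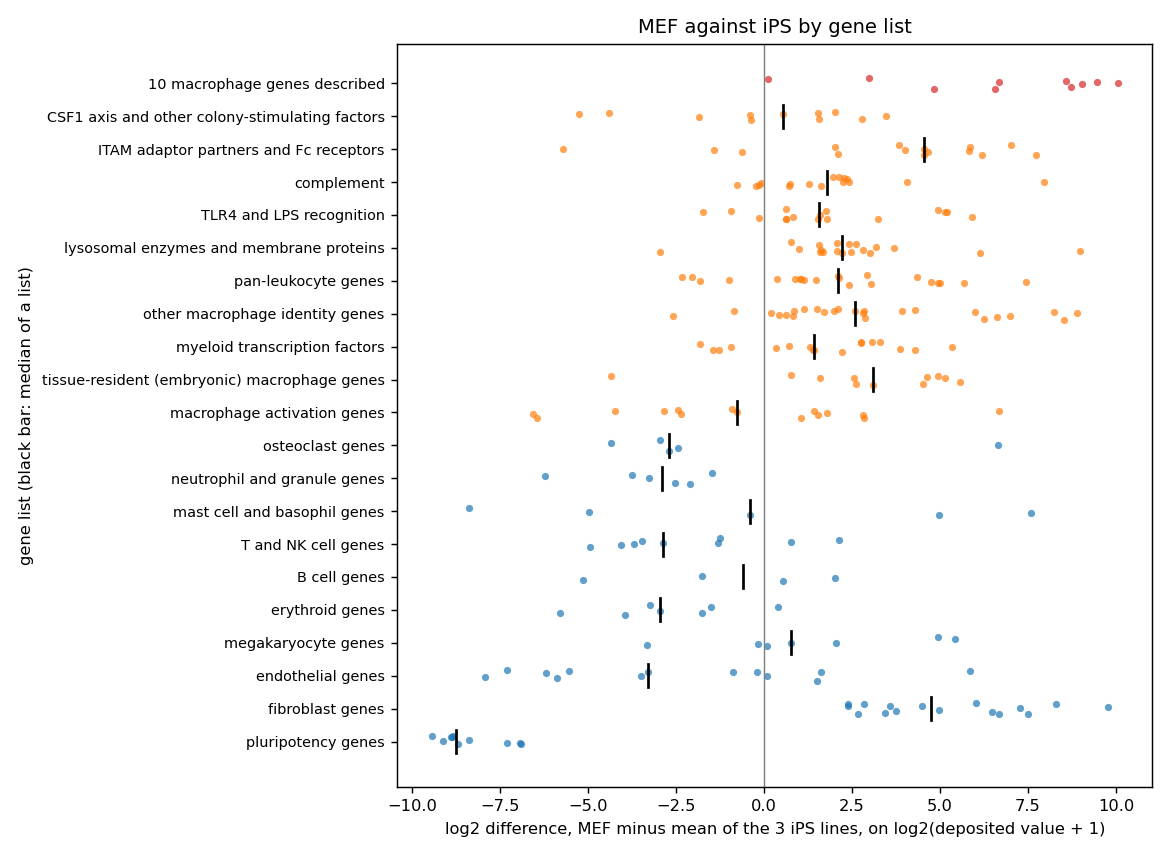
Log2 difference between MEF and the mean of the 3 iPS lines on log2(deposited value + 1), with 1 point per gene, for the 10 macrophage genes (red), 10 lists of macrophage biology (orange) and 10 lists of other cells (blue), where black bars are list medians. The macrophage genes run from 0.11 for *Cd68* to 10.06 for *Lyz2*, and list medians from -8.77 for pluripotency genes to 4.74 for fibroblast genes.

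Markers of other blood cells and of endothelium gave another picture. Over 51 tested genes of neutrophils, mast cells and basophils, T and NK cells, B cells, erythroid cells, megakaryocytes and endothelium, 8 (15.7%) were higher in MEF and 31 (60.8%) lower, beside the 21.6% and 26.6% of all genes. After quantile normalization 13 of the 51 were higher. Their median log2 difference was -1.76. All 6 neutrophil genes and 7 of 9 T and NK cell genes were lower. A gene near 0 in MEF was tested only where derived libraries reached 10, and could then hardly be called higher. Of the genes in the table, 3 of 6 for neutrophils, 6 of 12 for T and NK cells, 5 of 8 for B cells and 5 of 8 for erythroid cells had 3 reads or less in both MEF libraries. For mast cells and basophils it was 1 of 6, for megakaryocytes 1 of 8 and for endothelium 2 of 14. The calls of such genes reflect the derived lines. *S100a8* and *S100a9* had 1.13 ± 0.09 and 0 in MEF. Among endothelial genes *Pecam1* and *Cldn5* had 3.94 ± 1.1 and 1.60 ± 2.2 in MEF against 196 to 2948 and 110 to 1259 in the derived lines, whereas *Erg* had 934 ± 62 and 7.14 to 25.8. The mast cell and basophil list was split, with 2 of 5 tested genes higher and 2 (*Kit* and *Hdc*) lower. *Mcpt8*, a basophil protease gene, had 449 and 419 in MEF and 0 to 3.06 in the derived lines, and *Ms4a2*, which encodes a chain of the IgE receptor that pairs with the *Fcer1g* product, 32.2 and 35.8 against 0 to 0.991. *Ppbp*, a chemokine gene of platelets, had 3955 and 3998 in MEF and 24.6 to 256 in the derived lines. Of the 5 osteoclast genes tested *Ctsk* was higher, at 2265 ± 7.8 in MEF and 14.3 to 31.3 in the derived lines, and 4 were lower. The 16 fibroblast genes were all called higher, and the 10 pluripotency genes all lower. In bulk libraries, fewer cells of a type and less RNA per cell cannot be told apart, and a gene of this kind may be read in fibroblasts themselves.

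The 5 tested genes whose log2 profile over the 10 libraries was most like the mean profile of the 10 macrophage genes were *Sec22b*, *Stt3a*, *Bcl9l*, *Pdia5* and *Frmd6*, with Pearson correlations of 0.998 in each case. The points are 2 MEF libraries and 8 derived libraries, so such a correlation mostly reflects that one step, and 227 of 17065 genes had 0.99 or more. *Sec22b* had 5319 ± 1.7 in MEF (SD, n = 2) and 1584 to 1832 in the derived lines, a much smaller step than that of *Lyz2*.

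Among the derived lines, passages 5 and 25 were compared over the 4 lines with the line as a block. *Csf1r* and *Cd68* were called, both lower at passage 25. They are 2 of the 10 macrophage genes, beside 1.69% of all genes tested in either direction, 1.29% lower and 0.398% higher (68 genes higher and 221 lower over all genes, but 12 and 82 without clone 1 at passage 5 and 9 and 90 without clone 1 at passage 25). *Csf1r* fell by 1.48 on the log2 scale (SE 0.18, limma adjusted p = 0.00515), with values at passage 25 of 0.421, 0.306, 0.296 and 0.403 of those at passage 5 in the control, clone 1, clone 2 and pre-iPS cells. *Cd68* fell by 1.07 (SE 0.12, limma adjusted p = 0.00472), to 0.418, 0.375, 0.605 and 0.545 of the passage 5 value in the same lines. All 4 lines moved down for both genes, and the exact two-sided permutation test over 4 lines gave p = 0.125, the smallest it can give. Without clone 1 at passage 5 neither call was kept. *Csf1r* then had a log2 difference of -1.42 (limma adjusted p = 0.0504) and *Cd68* of -0.95 (limma adjusted p = 0.0341), and without clone 1 at passage 25 only *Csf1r* was called. *Cd14* did not move in 1 direction, with a log2 difference of -0.01 (SE 0.15, limma adjusted p = 0.984) and a rise in the control against falls in the other 3 lines. The other 7 genes had 0 to 11 reads in each of these libraries, and a change in them was not detectable at this depth.

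**Figure D5:**
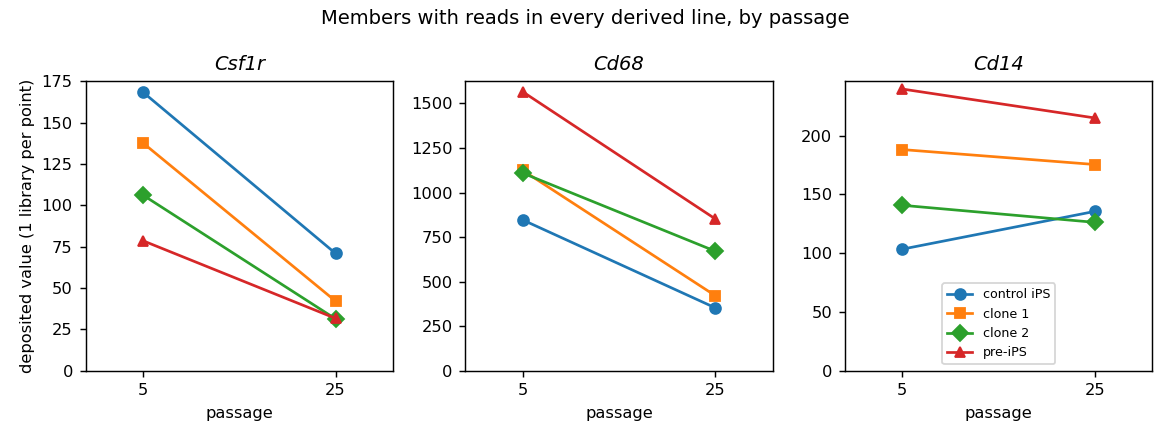
Deposited values of *Csf1r*, *Cd68* and *Cd14* at passages 5 and 25 in the control iPS line, clones 1 and 2 and pre-iPS cells (1 library per point, lines join the libraries of one line). *Csf1r* and *Cd68* are lower at passage 25 in 4 of 4 lines, *Cd14* in 3 of 4.

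Of the 165 other macrophage biology genes, 10 (6.06%) were called between the passages, 2 higher and 8 lower. Over all genes tested the share was 1.69%, with 0.398% higher and 1.29% lower. The activation genes *Nos2*, *Il1a*, *Tnf*, *Arg1* and *Acod1* were lower, together with *Acp5*, *Stab1*, a scavenger receptor, and *Cbr2*, while *Cytip* and *Ikzf1* were higher. These genes were named after their values were seen. *Nos2* had 306, 251, 548 and 828 at passage 5 and 63.6, 61.6, 99.5 and 177 at passage 25 in the control, clone 1, clone 2 and pre-iPS cells, a log2 difference of -2.23 (SE 0.13, limma adjusted p = 0.000623). *Acp5* had 1976, 2235, 2385 and 1696 against 795, 628, 901 and 583, a log2 difference of -1.52 (SE 0.09, limma adjusted p = 0.000782). For *Nos2*, *Acp5*, *Cbr2*, *Stab1* and *Cytip* the 4 libraries of each passage did not overlap, and for the other genes named here they did. The share of all genes without overlap was not counted, and these genes were picked from those called, so the lack of overlap is a description only.

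Between pre-iPS cells and the 3 iPS lines, *Ptprc* alone among the 10 genes was called, beside 16.3% of all genes tested in either direction, 4.71% higher and 11.6% lower. The call rests on a few reads. *Ptprc* had 8 and 5 reads in pre-iPS cells against 0 to 5 in the 6 iPS libraries, a log2 difference of 1.39 (SE 0.44, limma adjusted p = 0.0369, exact two-sided permutation p = 0.0357, the smallest that 2 libraries against 6 can give). Both tests take the passages of a line as separate replicates. With 1 pre-iPS line, neither p-value measures the spread between independently derived lines. The call was lost with the passage as a replicate block, which left 0 of the 10 genes called (*Ptprc* limma adjusted p = 0.0589), and it was kept when a control library or clone 1 at passage 5 was left out but lost without any other single library. *Cd14* had values of 240 and 215 in pre-iPS cells, above the 104 to 188 of the iPS libraries. Its log2 difference of 0.67 (SE 0.15, limma adjusted p = 0.00754) was under the threshold of 1. *Cd68* had a log2 difference of 0.75 (SE 0.44, limma adjusted p = 0.214). That of *Csf1r* was -0.64 (SE 0.61, limma adjusted p = 0.438), and for both genes the libraries overlapped. With the passage as a replicate block, the limma adjusted p was 0.00448 for *Cd68* and 0.0357 for *Csf1r* at the same differences, which are under the threshold of 1. Over all genes the split was 804 higher and 1977 lower, and 1483 higher and 1426 lower after quantile normalization. Of the 165 other genes 38 were called (23.0%), 11 higher and 27 lower. This comparison and that of MEF against iPS share the iPS libraries.

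Between the rNetrin-1-derived clones and the control iPS line none (0) of the 10 genes was called by limma, edgeR or DESeq2, beside 2.11% of all genes tested. The only unadjusted limma p under 0.05 among the 10 was that of *Cd14*, 1 gene, at a log2 difference of 0.39 (SE 0.16, limma adjusted p = 0.234). *Cd14* had 188, 176, 141 and 126 in the clones against 104 and 136 in the control, so the groups overlapped. *Csf1r* differed by -0.71 on the log2 scale (SE 0.65, limma adjusted p = 0.646). *Cd68* differed by 0.49 (SE 0.47, limma adjusted p = 0.665), and for both genes the clone and control libraries overlapped. Within each passage, however, the control was above both clones for *Csf1r* and below both for *Cd68*. With the passage as a replicate block, the same differences had limma adjusted p = 0.0984 for *Csf1r* (SE 0.22) and 0.0983 for *Cd68* (SE 0.15), with unadjusted p of 0.0127 for each, and again no call (0 of 10).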

How the data were processed

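The members and gene lists were chosen with earlier results of these data known. Per the labels, poly(A) RNA was read as 50 nt single reads, and the submitters' processing notes name FastQC, CASAVA 1.8.2, TopHat2 2.0.8b, HTSeq 0.5.3p9, edgeR and mm10. The strand setting and annotation used in counting are not given in the sources used here. The deposited values are a normalized signal, edgeR pseudo-counts in which the authors had equalized library sizes. No per-sample column was left unused. Whole reads were recovered for 100% of values in every library (tolerance 0.1 read; for MEF with the dispersion of 0.000389 that gave whole reads). Repeating edgeR's equalization on them returned the deposited values above 5 to within 1.62e-05%. This gave 38110410 to 52946856 reads on genes.

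The test was limma 3.58.1 (R 4.3.3) on log2(value + 1), with trend, 1 mean per line over 10 libraries, Benjamini-Hochberg adjustment and 17075 genes that reached 10 in 2 or more libraries. On this scale differences of low genes are understated. Passages were compared over 8 libraries with the line as a block. Passage numbers pair the derived libraries, since the deviations of same-passage libraries from their line means correlated at 0.235 to 0.504 over 6 pairs of lines. P-values measure only the spread between these libraries, which may be technical. In the fit with 1 mean per line, it is the spread between the passages of each line, pooled over lines. Its coefficient of variation was 16.1 to 19.6% in the derived lines and 1.88% in MEF. The fits were tested on simulated reads. Alternatives used edgeR 4.0.16 and DESeq2 1.42.0 on the recovered reads. Positions are from GENCODE M21 on GRCm38, where 98.8% of symbols were found, and promoters from RefSeq on GRCm38.p6 (6 of the 8 members outside chromosome 18 had an entry). Named genes were the 10 members, the 3 genes of each list highest in MEF, up to 3 called lower, the 5 most alike in profile, *Gapdh* and *Actb*. Others are marked, and some genes under this rule are not reported here.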

Additional observations from a re-analysis of the deposited data

Results flagged for a closer look

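*Fcer1g* changed by 0.775 in the deposited unit from passage 5 to passage 25 in pre-iPS cells, a rise, while it fell in all 3 iPS lines. The difference was not tested, and each of these libraries had 3 to 5 *Fcer1g* reads.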

How the results depend on the processing

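The 112 of 165 macrophage biology genes higher in MEF became 80 of the 118 tested with a mean value of at least 50. By the adjusted p alone they became 122 of 165, and the other alternatives gave counts between these. The 21 lower genes became 13 with a mean value of at least 50, where fewer genes (118) are tested, 14 of 165 after quantile normalization, 28 by the adjusted p alone, and 21 to 23 without 1 library. The 8 blood cell and endothelial genes higher in MEF became 13 after quantile normalization, and 8 to 9 without 1 library. In pre-iPS against iPS, 0 of the 10 genes were called with a pseudocount of 5 or 0.5, a mean value of at least 50, a fit over only the lines compared or the passage as a replicate block, 2 after quantile normalization (*Ptprc* and *Fcer1g*) or by the adjusted p alone (*Ptprc* and *Cd14*), and 0 to 1 without 1 library. EdgeR, DESeq2 and the fit with no filter gave 1. The cause of these changes was not tested. For *Ptprc* the adjusted p ran from 0.00114 to 0.240 over the 20 alternatives. The block changed no other call of a member, and MEF has no paired fit because its passages are other numbers. The passage calls were 0 to 2 without 1 library and 2 under every other alternative, and between the clones and the control 0 were called under each of the 20. Over all genes, calls between the clones and the control (169 higher and 191 lower) became 58 and 76 in a fit over only the lines compared, 275 and 289 with the block and 375 and 322 by the adjusted p alone, which also gave 566 and 1303 against 68 and 221 between the passages. Where 1 library of a line was left out, the lone library was assumed to vary like the others. The MEF passage ratio was 0.969 without *Lyz2*. The summed share in the derived lines was 10.4%, 9.42 to 11.1% without 1 library, 7.66% on deposited values, 19.4% without *Lyz2* and, chosen after seeing the data, 2.56% without *Cd68* and 0.186% also without *Csf1r* and *Cd14*. A gene with 0 reads in a library can still be present at up to 3.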

Other observations

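These values of other macrophage genes were chosen after they were seen. In MEF, *Cx3cr1*, the fractalkine receptor of resident macrophages, had 752 and 716 and at most 17.3 in the derived lines, and *Mrc1*, the mannose receptor, 992 ± 3.0 (SD, n = 2) and at most 197. *Cd163*, a haemoglobin scavenger receptor, had 43.0 ± 0.4 in MEF and 43.2 to 128 in the derived lines. *Cbr2*, which is also a gene of lung and other epithelia, had 2444 and 2292 in MEF, 1878 to 2845 in the derived lines at passage 5 and 714 to 1011 at passage 25 (log2 difference -1.48, SE 0.06, limma adjusted p = 0.000168).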
